A study of Homo sapiens with 10 samples.

Results

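The epithelial regulators and adhesion genes described here were 10 genes, GRHL1, GRHL2, ESRP1, ESRP2, OVOL1, EPCAM, ELF3, RAB25, ST14 and CLDN4, picked by their gene symbol from the 57955 genes of the deposited tables, in which each symbol occurred once. Their mRNA was measured in 5 human melanoma cell lines that carry a BRAF V600E mutation, each in a sensitive and a resistant form, with 1 library per line and form and therefore 10 libraries. WM983A, WM278 and WM902B came from primary tumours, and WM983B and WM1617 from metastases. The sensitive group was the 5 parental lines, which received no drug. The resistant group (E+BRes) was the 5 lines derived from them by culture in encorafenib, a BRAF inhibitor, together with binimetinib, a MEK inhibitor, starting at 1 nM and reaching 200 nM within 3 to 5 months, and these cells were then held in 200 nM of the combination. Resistance and the presence of the drugs therefore cannot be told apart. WM983A and WM983B came from 1 patient and WM278 and WM1617 from another, so the 5 lines stand for 3 patients, and the p-values below measure the spread between these lines only.

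Epithelial cells hold to each other through tight junctions, adherens junctions and desmosomes, and a small set of regulators keeps the genes of these junctions on. GRHL1 and GRHL2 are grainyhead-like transcription factors that switch on junction genes, OVOL1 is a zinc-finger repressor that opposes the mesenchymal programme, and ELF3 is an epithelium-specific ETS factor. ESRP1 and ESRP2 are RNA-binding proteins that set the epithelial splice forms of many transcripts. EPCAM is an adhesion glycoprotein of the epithelial surface, CLDN4 a claudin of the tight junction, RAB25 a small GTPase of vesicle recycling, and ST14 (matriptase) a serine protease of the epithelial membrane. The repressors ZEB1, ZEB2, SNAI1 and SNAI2 bind E-boxes, short DNA motifs that include CAGGTG, in promoters of epithelial genes. Melanocytes arise from the neural crest and are not epithelial, although melanocytes in skin attach to keratinocytes through E-cadherin (CDH1).

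The genes fell into a group that was read in every library, a group that stood out in 1 or a few libraries, and a group near the detection limit. GRHL1, ESRP1 and CLDN4 had more than 3 counts in all 10 libraries. ELF3 exceeded 3 counts in 8 libraries, ESRP2 in 9, ST14 in 5 and EPCAM in 3. GRHL2, OVOL1 and RAB25 did not exceed 3 counts in any of the 10 libraries. The detection limit was set at 3 counts, which corresponded to a normalised level of 0.172 to 0.230 CPM, in which depth is made equal between libraries. Per kilobase of exon, the highest level of any of the 10 genes was that of ELF3 in resistant WM983A (8.11 CPM per kb), followed by ESRP1 in sensitive WM983A (5.51), EPCAM in resistant WM983A (4.58), GRHL1 in sensitive WM983B (1.63) and CLDN4 in resistant WM983B (0.870). The highest level of the other 5 genes was 0.171 CPM per kb, of ESRP2 in sensitive WM1617.

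**Figure D1:**
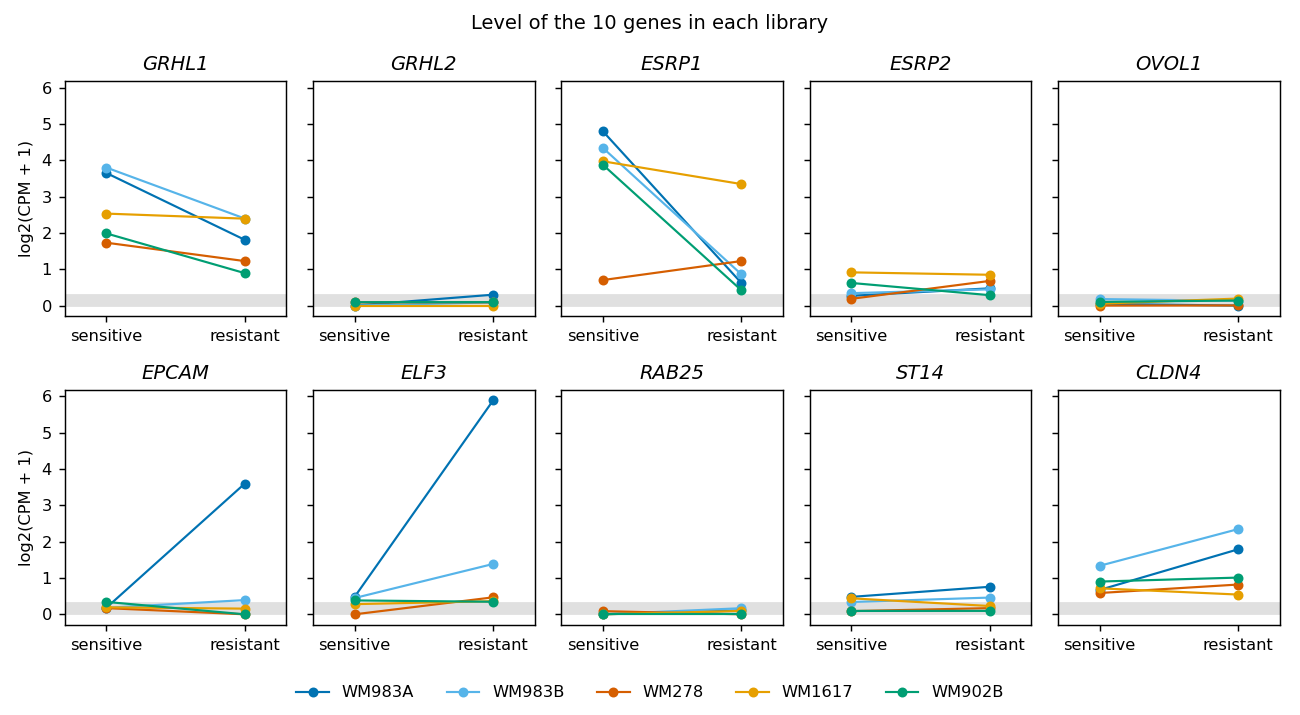
Level of each of the 10 genes as log2 of CPM + 1 in the sensitive (left) and the resistant (right) library of each line, with 1 coloured line per cell line and the grey band marking levels up to 3 counts. ESRP1 started high in 4 lines and ended low in 3 of them, ELF3 and EPCAM stood far above the band in resistant WM983A only, ELF3 and CLDN4 also lay above their sensitive level in resistant WM983B, and GRHL2, OVOL1 and RAB25 stayed in or at the band.

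The libraries held 13693922 to 18033247 counts. The resistant WM983A library stood apart from the others. Across 17288 genes, its highest correlation with a sensitive library was with that of WM902B (Pearson's r = 0.837, across genes, which are not independent replicates), against 0.818 with the library of its own line, whereas each of the other 4 resistant libraries was closest to its own line, at 0.886 to 0.982. Of 10 melanocyte markers, all 10 were at least 2-fold lower in resistant than in sensitive WM983A. Of all genes with more than 3 counts in at least 1 library of that line, 18% were. The summed level of the markers was 3692 CPM in sensitive and 91.6 CPM in resistant WM983A. SOX10, the neural crest factor of the melanocyte lineage, had 84.3 counts there against 5197 in sensitive WM983A. In resistant WM983B 8 of the 10 markers were at least 2-fold lower and in resistant WM902B 6, against 10.9% and 11.8% of such genes. SOX10 was at 201 and 9.82 counts there. In WM278 and WM1617 none of the markers were 2-fold lower, against 7.74% and 6.25%. There 3 and 1 of them were at least 2-fold higher, against 15.1% and 3.18%. In WM983B 1 marker, MLANA, was 4.16-fold higher. TYRP1, TYR, MLANA and DCT held only 4, 9, 12.1 and 15 counts in sensitive WM278, which limits how far they could fall. The values of the resistant WM983A library depart from its labelled line, and no source used here settles whether it derives from WM983A as labelled. Every ratio within WM983A given below rests on that label. Fits over the lines are given also without this library where leaving it out changed a call, as are the correlations. In bulk RNA, fewer cells of a type and less RNA per cell cannot be told apart.

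The comparison of the 5 resistant with the 5 sensitive lines asked whether the epithelial genes changed with acquired resistance. In edgeR's quasi-likelihood test with Benjamini-Hochberg adjustment, 0 of the 10 genes passed an adjusted p of 0.05 with a 2-fold change, against 0% of all 17288 genes tested. The number of all genes at an unadjusted p under 0.05 in the same test was 1235, and DESeq2 gave 104 of all genes, but 0 of the 10, past the adjusted threshold. Only GRHL1, ESRP1 and CLDN4 passed the filter on low counts and entered the test. GRHL1 and ESRP1 were lower in the resistant lines at an unadjusted p under 0.05 with a 2-fold change, a level at which 0.885% of all genes were lower and 3.53% were higher, and 0 of the 10 were higher. The median log2 fold change was 0.03 over all genes tested. The sensitive and resistant values overlapped for every one of the 10 genes.

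ESRP1 (chr8:94641074-94707466, plus strand, GRCh38) had the largest difference between the groups of the 3 tested genes. Sensitive WM983A held 408 counts, WM983B 291, WM278 10, WM1617 206 and WM902B 205. Resistant WM983A held 7 counts, WM983B 13.0, WM278 21, WM1617 160 and WM902B 5. All sensitive lines but WM278 thus expressed ESRP1 at over 200 counts, and after resistance WM1617 was the line that kept a level above 21 counts. Within lines, ESRP1 was 44.6-fold lower in resistant WM983A (log2 ratio -5.48, 95% counting interval -6.97 to -4.59), 34.0-fold lower in WM902B (-5.09, -6.98 to -4.09) and 22.0-fold lower in WM983B (-4.46, -5.49 to -3.77). In WM1617 it was 1.60-fold lower (-0.68, -0.99 to -0.38), and in WM278 it was 2.03-fold higher with an interval that included 0 (1.02, -0.06 to 2.34). The intervals reflect counting error and not the spread of repeat cultures, since each line was sequenced once in each form.

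Over the lines, edgeR's test gave ESRP1 a log2 fold change of -2.61 (SE 1.06, n = 5 per group, unadjusted p of 0.0324, adjusted p of 0.685). The mean log2 level was 7.16 ± 2.14 (SD, n = 5) in the sensitive and 4.22 ± 1.76 in the resistant lines. An exact two-sided permutation test over all arrangements of the libraries, which ignored the pairing by line, gave p = 0.0476. Its smallest possible p is 0.00794. With cell line as a replicate block the change was -3.16 (SE 1.29, unadjusted p of 0.0446). The pooled value depended on single lines. Without the resistant WM983A library it was -2.37 (unadjusted p of 0.0646), without both WM983A libraries -2.05 (0.121), without WM983B -2.28 (0.106), without WM902B -2.35 (0.0819), and without WM1617, the line that kept ESRP1, -4.30 (0.00228).

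GRHL1 (chr2:9951693-10002277, plus strand) was lower in the resistant library of all 5 lines, by amounts that differed between lines. Sensitive WM983A held 176 counts, WM983B 195, WM278 37, WM1617 67.0 and WM902B 44.4. Resistant WM983A held 32.7 counts, WM983B 68, WM278 21.0, WM1617 74.3 and WM902B 12.7. The counts in WM1617 were slightly higher in the resistant library, which was also the deepest of the 10, and its ratio turned to 1.12-fold lower once depth was accounted for, with an interval that included 0 (log2 ratio -0.17, -0.67 to 0.32). GRHL1 was 4.52-fold lower in resistant WM983A, 3.29-fold lower in WM902B and 3.00-fold lower in WM983B, the 3 lines in which the ESRP1 ratio was also lowest. In WM278 it was 1.70-fold lower with an interval that just included 0 (-0.77, -1.64 to 0.02). Over the lines edgeR's test gave -1.38 (SE 0.62, unadjusted p of 0.0486, adjusted p of 0.699) on the log2 scale, and -1.30 with the replicate block (SE 0.37, unadjusted p of 0.0106, adjusted p of 0.461). The exact permutation test gave p = 0.0952. GRHL1 no longer met the unadjusted threshold without the resistant WM983A library (-1.37, unadjusted p of 0.0804), without both WM983A libraries (-1.10, 0.168), without WM983B (-1.27, 0.0966), without WM278 (-1.42, 0.0555), without WM902B (-1.34, 0.0636), or with the lines of each patient summed (-1.41, 0.108). With the block, 2.05% of all genes were at least 2-fold lower at an unadjusted p under 0.05. GRHL1 overlaps long non-coding genes on the other strand, 1 of which had counts. Strand use in counting is not given in the sources used here, so their reads cannot be told apart.

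CLDN4 (chr7:73799542-73832690, plus strand) was higher in both resistant lines of the patient who gave WM983A and WM983B. Sensitive WM983A held 9 counts, WM983B 23, WM278 8, WM1617 9 and WM902B 13, and the resistant libraries held 32, 65.1, 12, 8 and 15 in the same order. It was 3.84-fold higher in resistant WM983A (log2 ratio 1.94, 0.95 to 3.31) and 2.61-fold higher in resistant WM983B (1.38, 0.71 to 2.17), and its ratios of 0.55, -0.44 and 0.21 in WM278, WM1617 and WM902B had intervals that included 0. Over the lines edgeR's test gave a log2 fold change of 1.08 (SE 0.61, unadjusted p of 0.104, adjusted p of 0.757), and 0.92 (SE 0.66) when the resistant WM983A library was left out. The difference in CLDN4 between the groups did not exceed the spread between lines.

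ELF3 (chr1:202007945-202017183, plus strand) was near the detection limit in 8 libraries and reached the highest level of the 10 genes in resistant WM983A. Sensitive WM983A held 6 counts, WM983B 5.5, WM278 0, WM1617 3 and WM902B 4.54. Resistant WM983A held 759 counts (58.3 CPM), resistant WM983B 25.7, WM278 6, WM1617 4.97 and WM902B 4. ELF3 was 127-fold higher in resistant than in sensitive WM983A (log2 ratio 6.99, 6.08 to 8.66) and 3.91-fold higher in WM983B (1.97, 0.72 to 3.61). Against the floor of 3 counts it was at least 2.03-fold higher in resistant WM278, and its interval there began at 0.26. In WM1617 and WM902B the intervals included 0. ELF3 shares its position with the antisense gene ELF3-AS1, and since no source used here says whether strand was used in counting, reads of both cannot be told apart. ELF3 was too low in most libraries to be kept by the filter, and the exact permutation test gave p = 0.167.

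EPCAM (chr2:47345158-47387601, plus strand) was the most restricted of the detected genes. Sensitive libraries held 2 counts in WM983A, WM983B, WM278 and WM1617 and 4 in WM902B. Resistant WM983A held 145 counts, WM983B 4.97, WM1617 2, and WM278 and WM902B 0. EPCAM was at least 56.4-fold higher in resistant WM983A, whereas the intervals of the other lines included 0. A count of 0 in resistant WM278 and WM902B allows a level of up to 0.191 and 0.203 CPM. The exact permutation test over all lines gave p = 0.889, and the gene did not pass the filter.

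**Figure D2:**
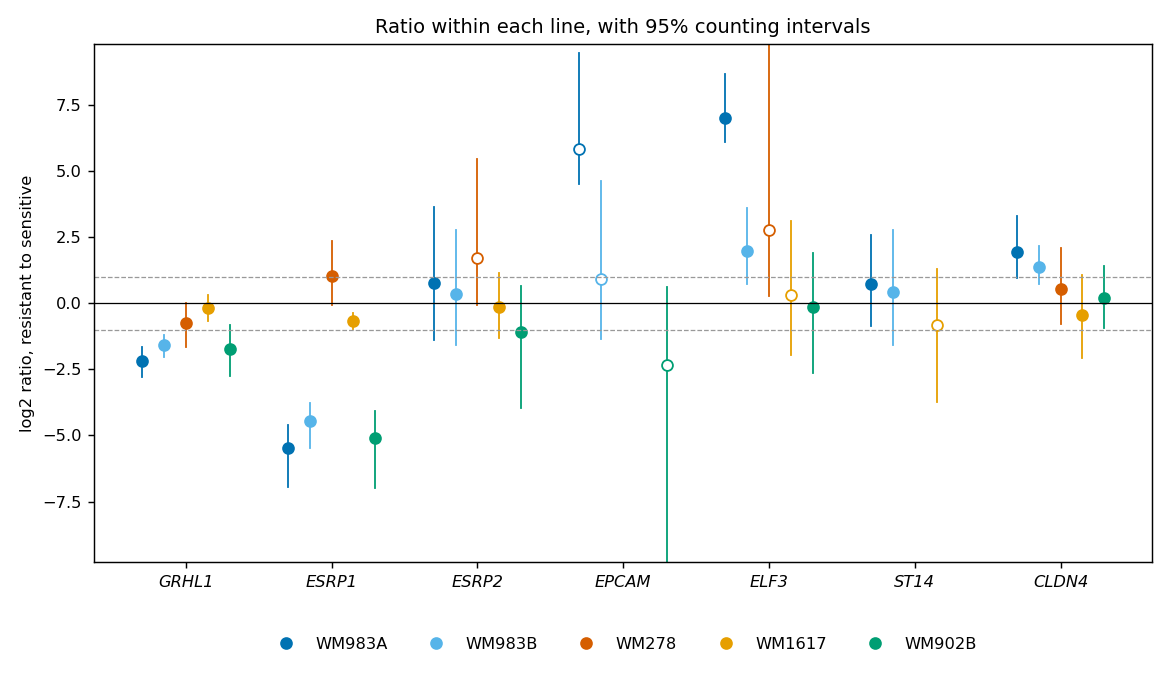
Resistant-to-sensitive log2 ratio within each line for the 7 genes with more than 3 counts in some library, with 95% intervals for counting error as vertical bars, dashed lines at a 2-fold change and open circles where a library of the pair lay at or under 3 counts. The 3 lowest ESRP1 ratios lay between -5.48 and -4.46, all GRHL1 ratios lay under 0, and the ELF3 ratio reached 6.99 in WM983A; bars that leave the frame have no finite bound.

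Between the groups, the remaining genes gave no difference that was detectable at this depth. ESRP2 (chr16:68229033-68238102, minus strand), the paralog of ESRP1, held 3.11, 4.04, 2.18, 12.4 and 8.08 counts in sensitive WM983A, WM983B, WM278, WM1617 and WM902B and 5.07, 5.77, 9.42, 13.97 and 3.24 in the resistant libraries. In WM902B, where ESRP1 was 34.0-fold lower, ESRP2 was 2.12-fold lower, and in WM983A and WM983B it was 1.69-fold and 1.28-fold higher, each with an interval that included 0. ESRP2 overlaps NFATC3 on the other strand. ST14 (chr11:130159782-130210362, plus strand) held 1 to 6 counts in the sensitive and 1 to 9 in the resistant libraries, the highest in resistant WM983A. GRHL2 (chr8:101492439-101669726), which shares its family with GRHL1, held 0 to 1 count in the sensitive libraries and 3 in resistant WM983A, where ELF3 and EPCAM were highest. OVOL1 (chr11:65787063-65797214) held at most 2.5 counts and RAB25 (chr1:156061160-156070504) at most 1.97. The exact permutation p-values of ESRP2, ST14, GRHL2, OVOL1 and RAB25 ran from 0.167 to 0.825.

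Counted by line, the 10 genes split by direction within WM983A and WM983B. In WM983A 3 of the 7 genes over 3 counts in at least 1 library were at least 2-fold higher (EPCAM, ELF3 and CLDN4) and 2 at least 2-fold lower (GRHL1 and ESRP1), against 20.9% and 18% of all 22680 such genes. In WM983B 2 of 7 were higher (ELF3 and CLDN4) and 2 lower (GRHL1 and ESRP1), against 19.2% and 10.9%. For all 9 of these the counting interval left out 0. In WM902B 0 of 6 were higher and 3 lower (GRHL1, ESRP1 and ESRP2), against 18.5% and 11.8%, with the interval of ESRP2 including 0. In WM278 3 of 5 were higher (ESRP1, ESRP2 and ELF3) and 0 lower, against 15.1% and 7.74%, and the interval of ELF3 alone left out 0. In WM1617 0 of 6 were higher and 1 lower (ST14), against 3.18% and 6.25%, with an interval that included 0. EPCAM in WM983A and ESRP2 and ELF3 in WM278 exceeded 3 counts only in the resistant library, and ST14 in WM1617 only in the sensitive one. The direction of these ratios was therefore fixed by the rule that counted the genes, a rule that also held for the shares of all genes. WM1617 was the line whose members moved least, and it was also the line in which the fewest of all genes were 2-fold higher.

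The level of ESRP1 varied with that of GRHL1 and the melanocyte factor MITF over the 10 libraries, which share 5 lines and are not independent. Pearson's r between log2 levels was 0.78 for ESRP1 and GRHL1 (Spearman's rho 0.83), 0.75 for ESRP1 and MITF (rho 0.62) and 0.45 for GRHL1 and MITF (rho 0.56). MITF, the master regulator of melanocytes, held 5849, 3983, 171, 8782 and 6017 counts in sensitive WM983A, WM983B, WM278, WM1617 and WM902B and 446, 588, 227, 9215 and 3251 in the resistant libraries. WM278, where ESRP1 was at 10 counts, was thus the sensitive line with the least MITF, and WM1617 kept both. WM902B departed from this order, since MITF was 1.83-fold lower there and ESRP1 34.0-fold. Against ZEB1, an E-box repressor of epithelial genes, r was -0.58 for ESRP1 (rho -0.81) and -0.80 for GRHL1 (rho -0.77). Without the resistant WM983A library, a choice made after the data were seen, these 5 values of r were 0.79, 0.72, 0.44, -0.54 and -0.80 over 9 libraries. ZEB1 held 0, 2, 612, 324 and 70.7 counts in the sensitive libraries in the same order and 389, 14, 230, 465 and 702 in the resistant ones. It was at least 151-fold higher in resistant WM983A, at least 4.42-fold higher in WM983B and 9.93-fold higher in WM902B, and 2.61-fold lower in WM278. WM1617 departed from this inverse order, since it kept ESRP1 at 206 and 160 counts beside ZEB1 at 324 and 465.

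**Figure D3:**
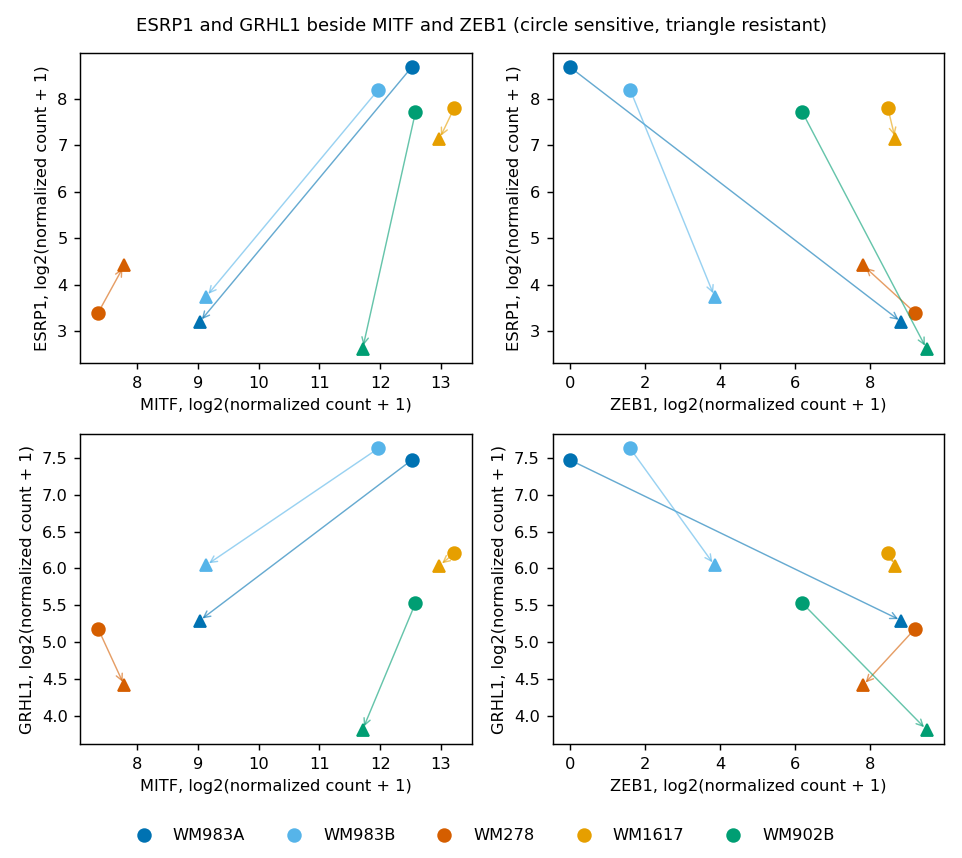
Log2 of the normalised count + 1 of ESRP1 (top) and GRHL1 (bottom) against MITF (left) and ZEB1 (right) in all 10 libraries, with arrows from the sensitive (circle) to the resistant (triangle) library of each line. In WM983A, WM983B and WM902B the arrows ran to less ESRP1, less MITF and more ZEB1, while in WM278 the arrow ran to more ESRP1 and less ZEB1.

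Resistant WM983A combined more ELF3, EPCAM and CLDN4 with other epithelial genes. Of 30 further genes of epithelial junctions and the epithelial surface, 29 exceeded 3 counts in that line. Of these, 21 were at least 2-fold higher and 1 lower, against 20.9% and 18% of all genes, and the summed level was 3273 against 117 CPM. Most of the 3273 CPM came from SPINT2 (898 CPM), KRT8 (768), KRT7 (649) and KRT18 (480). CDH1, the adherens junction cadherin, held 10 counts in sensitive and 781 in resistant WM983A (83.0-fold higher), while it held at most 3.97 counts in the libraries of the other 4 lines. The keratin KRT7 went from 45.1 to 8445 counts and KRT8 from 174 to 9996, and PKP3, a desmosomal plakophilin, from 17.0 to 1290. Of 8 keratinocyte markers, 5 exceeded 3 counts and 4 of these were at least 2-fold higher, against 20.9% of all genes. Their summed level was 282 CPM against 1.83 to 4.81 CPM in the other libraries, most of it from SFN at 3437 counts. KRT15 went from 25.0 to 151 counts, DSC3 from 1 to 63.0 and TRIM29 from 0 to 11. KRT5 held 10.5 counts and KRT14 held 1, and KRT6A and DSG3 held 0. The part of other cells in the EPCAM and ELF3 levels of this library was not tested.

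Of 8 transcription factors of the epithelial-mesenchymal transition, 5 were at least 2-fold lower and 2 at least 2-fold higher in the same library, against 18% and 20.9% of all genes. ZEB2 went from 1861 to 80.0 counts in WM983A (19.7-fold lower), SNAI2 from 1713 to 50.4 (28.6-fold lower) and TWIST1 from 815 to 271 (2.57-fold lower), while ZEB1 was at least 151-fold higher and TWIST2, which held 0 counts in sensitive WM983A, at least 38.9-fold higher. In resistant WM983B, where ELF3 and CLDN4 were higher, SNAI2 was 5.77-fold lower and ZEB2 1.37-fold higher. In the other 3 lines SNAI2 and ZEB2 were each higher in the resistant library, by 1.07-fold (ZEB2 in WM902B, with an interval that included 0) to 3.34-fold (SNAI2 in WM278). In WM983A mesenchymal genes were lower as well, since 5 of 9 were at least 2-fold lower and 1, COL1A1, was 7.13-fold higher, against the same 18% and 20.9%. Their summed level was 2191 against 18821 CPM, and FN1, the matrix protein fibronectin, held 2775 against 176991 counts. In WM983B, by contrast, 8 of 12 mesenchymal genes were at least 2-fold higher and none lower, against 19.2% and 10.9% of all genes. This stood beside more ELF3 and CLDN4 and less ESRP1 and GRHL1. In WM902B 5 of 11 were higher and 2 lower (FN1 5.07-fold and CDH2 29.3-fold), against 18.5% and 11.8% of all genes. The summed level there was lower, at 7970 against 13665 CPM. In WM278 5 of 12 were higher and none lower, against 15.1% and 7.74%. In WM1617, against 3.18% and 6.25% of all genes, 2 of 10 were higher (FN1 2.94-fold and the cadherin CDH2 3.20-fold) and 1 lower (ACTA2). The summed level was 14857 against 9306 CPM, a difference that rests on FN1 (8772 against 2981 CPM). VIM was at 4082 against 4458 CPM, and the median log2 ratio of the list was 0.02. Whether the differences between lines exceed the spread of repeat cultures could not be tested with 1 library per line and form.

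**Figure D4:**
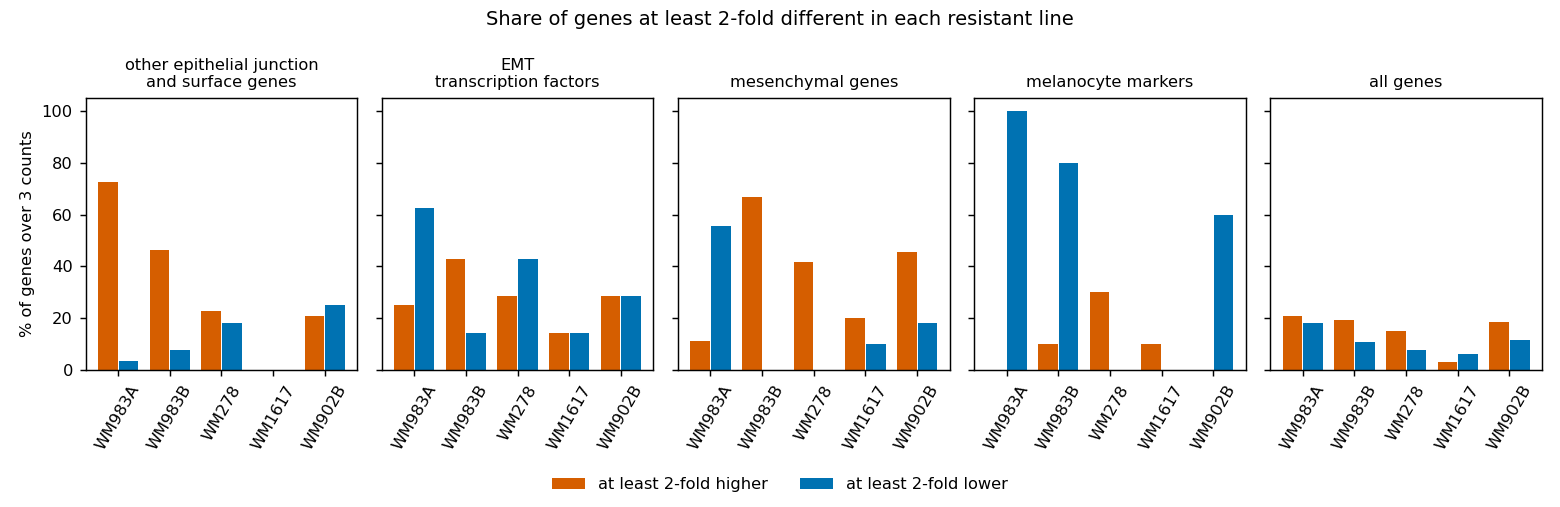
Share of the genes with more than 3 counts in at least 1 library of a line that were at least 2-fold higher (orange) or lower (blue) in the resistant library, for 4 gene lists and for all genes. In WM983A the epithelial genes were mostly higher (21 of 29) and the melanocyte markers all lower (10 of 10). In WM983B 12 of 26 epithelial genes were higher and 2 lower, against 19.2% and 10.9% of all genes, and 8 of 12 mesenchymal genes were higher. Of the epithelial genes in WM278, 5 of 22 were higher and 4 lower, against 15.1% and 7.74%. In WM902B 5 of 24 were higher and 6 lower, against 18.5% and 11.8%. In WM1617 none of the epithelial genes (0 of 21) were 2-fold different, while 2 of 10 mesenchymal genes were higher and 1 lower.

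Over the 5 lines, 5 of the 17 tested junction and surface genes were higher at an unadjusted p under 0.05 with a 2-fold change and 0 lower. At this level 3.53% of all genes were higher and 0.885% lower, and these shares also stand beside the lists that follow. The list had a median log2 fold change of 0.89 against 0.03 over all genes, and 0 passed the adjusted threshold in edgeR's test. The 5 higher genes were PKP3 (4.72, SE 1.37), KRT7 (4.54, SE 1.62), KRT8 (2.73, SE 1.15), the mucin MUC1 (2.56, SE 1.10) and JUP, the junction protein plakoglobin (2.01, SE 0.62). With the replicate block KRT7 and KRT8 no longer met that threshold. Without the resistant WM983A library they did not meet it either, with changes of 0.71 (SE 0.83) for KRT7 and 1.51 (SE 1.01) for KRT8, while PKP3 (3.00, SE 1.08), MUC1 and JUP did, and the median of the list was 0.57. JUP was the most even, with 62, 74.8, 44.8, 21.8 and 20 counts in sensitive WM983A, WM983B, WM278, WM1617 and WM902B and 229, 281, 127, 28 and 221 in the resistant libraries. JUP was thus at least 2-fold higher in WM278 and WM902B too, where EPCAM stayed at or under 4 counts. Of 8 further epithelial transcription factors 3 were tested, 0 were higher and EHF, an ETS factor close to ELF3, was lower (-3.36, SE 1.38), with 21.1, 55.9, 405, 1 and 3 counts in the sensitive and 9, 10, 21.9, 2 and 2 in the resistant libraries, and without the resistant WM983A library EHF did not meet the threshold (unadjusted p of 0.0602). Among 7 tested transcription factors of the epithelial-mesenchymal transition 0 were higher and PRRX1 was lower (-4.49, SE 1.16). ZEB1 (0.85, SE 1.39), ZEB2 (0.11, SE 0.60), SNAI2 (0.21, SE 0.94) and TWIST1 (-0.50, SE 0.48) did not pass.

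Of 9 tested mesenchymal genes COL1A1 (6.11, SE 1.76) and TAGLN (2.87, SE 0.91) were higher and 0 lower, against 3.53% and 0.885% of all genes. The median of the list was -0.27. Of 10 melanocyte markers 0 were higher and TYRP1 was lower (-5.21, SE 1.81); with the replicate block TYR met that threshold in its place (-3.92, SE 1.42). Of 5 tested fibroblast markers PDGFRB was higher (4.55, SE 1.62) and 0 lower, and with the block 0 passed. Of 1 keratinocyte and 2 leukocyte markers tested 0 passed, although LYZ was lower with the block (-3.40, SE 1.33), and none of 4 endothelial markers could be tested. Without the resistant WM983A library PRRX1, COL1A1, TAGLN, TYRP1 and PDGFRB met the threshold again, and PDGFRA (higher) and KRT15 (lower) were added.

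Promoter sequence was available in the RefSeq table used (GRCh38.p14) for GRHL1, ELF3, RAB25 and CLDN4. The 250 bases before the start site are shown for all 4 in lower case, 5′ to 3′ on the gene's strand. ESRP1, the tested gene with the largest difference, was among the genes without a window. Capitals mark the E-box CAGGTG, read on either strand (CACCTG on the other), which the ZEB and SNAI repressors bind. The ELF3 and CLDN4 windows lie before the RefSeq start site and inside the longer gene spans of GENCODE given above. The E-box occurred in 17.5% of 35116 promoter windows of this length.
GRHL1, chr2:9951443-9951692, plus strand: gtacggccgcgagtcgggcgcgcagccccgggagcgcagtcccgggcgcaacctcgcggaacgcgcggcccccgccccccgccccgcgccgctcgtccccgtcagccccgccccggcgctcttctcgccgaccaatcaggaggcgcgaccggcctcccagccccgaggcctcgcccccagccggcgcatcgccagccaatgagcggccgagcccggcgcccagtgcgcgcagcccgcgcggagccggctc
ELF3, chr1:202010337-202010586, plus strand: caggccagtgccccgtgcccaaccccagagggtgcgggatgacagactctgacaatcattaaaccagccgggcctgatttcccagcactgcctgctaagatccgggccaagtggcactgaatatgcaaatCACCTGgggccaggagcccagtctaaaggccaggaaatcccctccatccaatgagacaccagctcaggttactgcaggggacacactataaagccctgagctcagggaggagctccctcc
CLDN4, chr7:73830746-73830995, plus strand: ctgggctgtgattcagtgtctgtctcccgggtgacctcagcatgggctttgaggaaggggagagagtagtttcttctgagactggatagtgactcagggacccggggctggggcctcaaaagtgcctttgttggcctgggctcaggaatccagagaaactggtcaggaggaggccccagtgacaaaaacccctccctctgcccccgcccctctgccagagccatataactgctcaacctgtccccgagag
RAB25, chr1:156060910-156061159, plus strand: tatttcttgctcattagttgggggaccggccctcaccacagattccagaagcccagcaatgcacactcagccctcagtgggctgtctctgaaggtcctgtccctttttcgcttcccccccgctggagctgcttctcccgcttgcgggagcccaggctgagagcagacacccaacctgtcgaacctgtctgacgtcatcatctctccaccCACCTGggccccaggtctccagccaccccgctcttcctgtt

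ELF3, which was 127-fold higher in resistant WM983A, where SNAI2 and ZEB2 were lower and ZEB1 was higher, held 1 such E-box, 120 bases before the start site. RAB25 held 1, 41 bases before the start site, and its mRNA stayed at or under 1.97 counts in every library, resistant WM983A included. GRHL1 and CLDN4 held none. The MITF-type E-boxes CACGTG (6.34% of windows) and CATGTG (9.42%, CACATG on the other strand), and the grainyhead site AACCGGTT (0.117%), matched none of the 4 windows. A match of letters is a description of the sequence and does not show binding.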

How the data were processed

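mRNA of the 10 libraries was selected with oligo-dT and sequenced single-end over 75 cycles. Alignment by the authors used HISAT2 on GRCh38, and StrandNGS gave the values per Ensembl gene; versions, annotation, strand use and the handling of shared reads are not given in the sources used here. The raw values deposited by the authors are expected counts, which include fractions. The second deposited column holds log2 values that the authors made with the DESeq normalisation; it could be rebuilt to within 1.57e-06 as the log2 ratio between the resistant and the sensitive library of 1 line. In the sensitive WM983B library 455 raw values, that of ELF3 among them, were stored as dates and were recovered from these ratios.

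Expected counts were rounded and tested in R 4.3.3 with edgeR 4.0.16 (filterByExpr by group, TMM, glmQLFit and glmQLFTest, two-sided, Benjamini-Hochberg adjustment), 5 resistant against 5 sensitive libraries. DESeq2 1.42.0, limma 3.58.1 and cell line as a replicate block were alternatives. The block takes its pairing from the derivation of each resistant line; deviations from the group means correlated at -0.08 in WM983A and at 0.36 to 0.67 in the other lines. The edgeR, DESeq2, limma and replicate-block fits recovered known changes in simulated counts with a dispersion of 0.05. That is under the common dispersion of these libraries (0.421), at which power is lower. The simulated counts held no differences between lines, and the other alternative fits were not run on them. Ratios within a line were taken on normalised counts with 1 added, with lower bounds computed against a floor of 3 counts wherever either library did not exceed it. The 95% intervals are Clopper-Pearson intervals of the ratio and, like the floor, cover counting error only. Shares of all genes within a line are over genes with more than 3 counts in at least 1 of its libraries, whether or not they passed the filter. Single genes were compared by exact permutation of log2 normalised counts with 1 added, without the pairing by line. Other steps used Python 3.11.15 with scipy 1.17.1, numpy 2.4.6 and pandas 2.3.3, and figures matplotlib 3.10.9. Positions and exon lengths are those of GENCODE release 44, of the same build as the alignment.

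The genes and the lists were chosen with earlier results of these data known. All 10 genes are named; of the other lists the counts are given for the whole list, with values for CDH1, ZEB1, ZEB2, SNAI2, TWIST1 and genes at an unadjusted p under 0.05 with a 2-fold change, and the 5 genes most like the mean of the tested genes are named. MITF, SOX10, MLANA, DCT, FN1, VIM, CDH2, SPINT2, SFN, DSC3, TRIM29, DSG3 and the keratins were named after their values were seen.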

Additional observations from a re-analysis of the deposited data

Results flagged for a closer look

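Dixon's test marked 4 values that lay far from the other sensitive lines, among 20 groups of 5 libraries examined. With continuous, normally distributed values, chance flags about 1 in 20 groups. That rate does not hold for groups of tied or near-zero counts, so the 4 cannot be read against it. The log2 level of ESRP1 in sensitive WM278 was 3.40 (10 counts), against 205 to 408 counts in the other sensitive lines. EPCAM in sensitive WM902B stood above the others at 2.34 (4 counts, against 2 in each of the others). ELF3 in sensitive WM278 stood below the others at 0 (0 counts, against 3 to 6). RAB25 in sensitive WM278 stood above the others at 0.97, which was 1 count against 0. The last 3 rest on libraries with 6 counts or fewer.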

How the results depend on the processing

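The number of the 10 genes lower or higher at an unadjusted p under 0.05 with a 2-fold change, 2 (GRHL1 and ESRP1), became 1 with limma-voom (ESRP1), 1 with the lines of each patient summed (ESRP1), and 4 without the filter on low counts, where ELF3 (log2 fold change 5.40) and EPCAM (3.71) joined, both from the resistant WM983A library. Leaving out 1 line gave 0 to 2 genes, and leaving out the resistant WM983A library alone gave 0. DESeq2's test, its size factors in edgeR, the replicate block and leaving out WM1617 gave 2. Under the 12 alternatives 0 of the 10 genes passed the adjusted threshold, and no direction of GRHL1, ESRP1 or CLDN4 turned. Of all genes, 763 passed without adjustment and 419 to 1493 did with 1 line left out, 2258 without the filter. With cell line as a replicate block the number of the 10 genes was the same, 2, and that of all genes was 956. Within lines, 5 added in place of 1 before the ratio took the genes at least 2-fold higher in WM278 from 3 to 2 and those lower in WM902B from 3 to 2, with ESRP1 in WM278 at 0.80, while the other counts were the same under each scaling and pseudocount tried. Over the pseudocounts 0.5 to 5, the ratio of ELF3 in WM278 ran from 3.66 to 1.11 and that of EPCAM in WM902B from -3.19 to -0.86. Levels under about 10 counts limit ESRP2, ST14, EPCAM outside resistant WM983A, and ELF3 outside resistant WM983A and WM983B. They also limit ESRP1 in resistant WM983A and WM902B. For CLDN4 they limit sensitive WM983A, WM278 and WM1617 and resistant WM1617. No repeat culture measures the spread within a line.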

Other observations

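Over the 10 libraries, the genes whose log2 level was most like the mean of the tested genes GRHL1, ESRP1 and CLDN4 were GFOD1 (Pearson's r = 0.96), RNF43 (0.96), DSN1 (0.95), SEMA7A (0.93) and IGHMBP2 (0.93). Taken alone, with the genes chosen after their values were seen, ESRP1 was closest to CTB-96E2.7 (0.98), GFOD1 (0.97) and SLAMF9 (0.97), GRHL1 to RAE1 (0.96), RAD54B (0.95) and ESCO2 (0.94), and CLDN4 to TRIP10 (0.96), TYMP (0.95) and DSE (0.95). GRHL1 and CLDN4 themselves had an r of 0.03. ELF3 and EPCAM had an r of 0.86 with a Spearman's rho of 0.48, both being highest in resistant WM983A, and ELF3 and CLDN4 an r of 0.69 with a rho of 0.60. Without that library, left out after the data were seen, the r of ELF3 and EPCAM was 0.22 and that of ELF3 and CLDN4 0.75. These values describe 10 libraries of 5 lines in 2 forms and carry no test.

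Among the epithelial transcription factors beside the 10 genes, KLF5 held 799 counts in resistant and 132 in sensitive WM983A, and TP63 held 308 in resistant and 17 in sensitive WM983B, both chosen after their values were seen. GRHL3, the third grainyhead-like factor, held at most 4.41 counts in any library, and OVOL2 at most 13.4.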
